A study of Homo sapiens with 28 samples.

Results

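The serine, glycine and folate one-carbon genes described here are 10 genes taken from a list of names: PHGDH, PSAT1, PSPH, SLC6A9, SHMT2, MTHFD2, MTHFD1L, ALDH1L2, SHMT1 and MTHFD1. They are 10 of 26346 genes in the count files, and all 10 were among the 14220 genes that passed the filter on low counts. RNA was sequenced in 28 libraries of 13 groups, all of the human endometrial carcinoma line AN3CA. The line is known in the field as a line without ARID1A and ARID1B protein, the alternative ARID subunits of the chromatin remodeller cBAF. The control was an empty vector (4 libraries), and each of 12 constructs had 2 libraries. Of ARID1A there were the wild-type (WT), 2 truncations (delIDR1 and CBR), DBDmut with its ARID domain mutated, a DDX4 IDR hybrid that carries a disordered region named for DDX4 (DDX4 hybrid), 42YS and AQGscram, an AQG scramble. For 42YS the labels differ in the order of its letters and number, so the exact change is not given here. The ARID1B constructs were WT, M2 (S320_G327del), A457_G461del, Block13del and Block9del. All cells were untreated and share the AN3CA background. The labels give neither the vector's promoter, nor whether a line is 1 clone, nor whether replicates were separate cultures, so the p-values rest on a spread between libraries that may be only technical.

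PHGDH, PSAT1 and PSPH are the consecutive enzymes that make serine from the glycolytic intermediate phosphoglycerate. Serine hydroxymethyltransferase then splits serine to glycine and passes its carbon to folate, in mitochondria (SHMT2) and in the cytosol (SHMT1). In mitochondria MTHFD2 oxidises the folate-bound carbon, MTHFD1L releases it as formate and ALDH1L2 oxidises it to carbon dioxide with a gain of NADPH. Formate leaves for the cytosol, where MTHFD1 loads it back on folate for purine and thymidylate synthesis. SLC6A9 (GlyT1) carries glycine across the plasma membrane. Several of these genes are known targets of ATF4, the transcription factor of the amino acid stress response, and mitochondrial folate enzymes are commonly high in tumours.

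The 250 bases before the transcription start are shown for 4 members that were lowered together in most constructs (PHGDH, PSAT1, MTHFD2, MTHFD1L) and for SHMT1 and MTHFD1, which ran apart from them. They are from RefSeq (build GRCh38.p14), whose table held 7 of the 10 members. PHGDH lies at chr1:119711684-119711933 (+ strand), PSAT1 at chr9:78296875-78297124 (+ strand), MTHFD2 at chr2:74198365-74198614 (+ strand), MTHFD1L at chr6:150866236-150866485 (+ strand), SHMT1 at chr17:18363551-18363800 (- strand) and MTHFD1 at chr14:64388103-64388352 (+ strand). Capitals mark matches, on either strand, to the motifs named after the sequences.
PHGDH promoter: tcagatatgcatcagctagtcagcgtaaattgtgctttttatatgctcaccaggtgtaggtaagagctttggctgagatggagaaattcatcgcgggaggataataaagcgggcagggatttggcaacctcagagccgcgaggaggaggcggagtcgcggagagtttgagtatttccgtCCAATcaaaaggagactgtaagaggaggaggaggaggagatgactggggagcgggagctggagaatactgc
PSAT1 promoter: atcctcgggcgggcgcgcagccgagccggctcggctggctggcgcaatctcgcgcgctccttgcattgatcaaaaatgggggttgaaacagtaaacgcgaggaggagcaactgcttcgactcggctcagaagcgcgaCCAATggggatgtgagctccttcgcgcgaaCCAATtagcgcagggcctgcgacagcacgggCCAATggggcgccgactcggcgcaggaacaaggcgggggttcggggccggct
MTHFD2 promoter: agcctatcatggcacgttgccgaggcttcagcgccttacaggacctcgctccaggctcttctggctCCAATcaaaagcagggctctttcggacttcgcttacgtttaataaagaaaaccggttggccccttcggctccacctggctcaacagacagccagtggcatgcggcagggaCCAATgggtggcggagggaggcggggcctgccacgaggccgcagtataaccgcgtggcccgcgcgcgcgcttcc
MTHFD1L promoter: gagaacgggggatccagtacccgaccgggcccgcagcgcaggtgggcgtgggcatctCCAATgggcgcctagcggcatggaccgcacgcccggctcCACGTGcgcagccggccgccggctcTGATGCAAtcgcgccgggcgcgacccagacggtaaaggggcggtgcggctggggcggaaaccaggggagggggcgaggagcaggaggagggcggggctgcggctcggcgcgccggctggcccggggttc
SHMT1 promoter: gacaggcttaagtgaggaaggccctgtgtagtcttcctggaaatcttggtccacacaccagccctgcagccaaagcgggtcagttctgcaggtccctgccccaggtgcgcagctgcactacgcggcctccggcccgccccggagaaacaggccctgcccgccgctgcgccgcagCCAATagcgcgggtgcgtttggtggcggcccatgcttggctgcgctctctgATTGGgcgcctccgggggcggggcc
MTHFD1 promoter: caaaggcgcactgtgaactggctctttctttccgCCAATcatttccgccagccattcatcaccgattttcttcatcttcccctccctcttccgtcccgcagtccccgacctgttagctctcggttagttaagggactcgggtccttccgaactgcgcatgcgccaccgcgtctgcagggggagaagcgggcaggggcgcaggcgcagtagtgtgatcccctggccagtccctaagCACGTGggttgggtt

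Windows of 300 bases, 250 before the start and 50 after it, were searched on both strands for 4 motifs. CCAAT, the letters of the CCAAT box, was held by the windows of PHGDH, PSAT1, SHMT1, MTHFD1, MTHFD2 and MTHFD1L, and by 34.6% of all 35116 promoter windows in the table. PSAT1 held it at 3 places, 113, 83 and 52 bases before its start. TGATGNAA, the letters of the C/EBP-ATF response element, was found only with MTHFD1L, as TGATGCAA 129 bases before the start, and in 3.62% of all windows. CACGTG, the E-box read by MYC, was held by MTHFD1L and MTHFD1 and by 7.26% of all windows. TGANTCA, the AP-1 site, was in no member's window and in 7.71% of all. The SLC6A9 window held no match. MTHFD1L has 4 listed starts, of which the 3 whose windows overlap shared these matches. CCAAT is therefore held both by genes that fell together and by SHMT1 and MTHFD1.

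Gene reads numbered 16.6 to 27.9 M per library. The share of stranded gene reads on the strand opposite the gene, cut at 90% and 98%, splits the libraries in 3 sets, for which there is no label. Set 1 lies well apart, whereas sets 2 and 3 come close to each other at the upper cut. Set 1 (84.5 to 87.8%) holds empty vector replicates 1 and 2 with DBDmut, delIDR1, CBR and ARID1A WT. Set 2 (98.1 to 98.6%) holds ARID1B WT, M2, the DDX4 hybrid and empty vector replicates 3 and 4. Set 3 (96.7 to 97.9%) holds AQGscram, 42YS, A457_G461del, Block13del and Block9del but lacks an empty vector. In sets 1 and 2 a construct was compared with the empty vector pair of the same set (own pair) as well as with all 4 controls, and in set 3 with each pair in turn. ARID1A RNA was 288 ± 12.5 CPM (counts per 1 M gene reads, with library sizes scaled by TMM, mean ± SD) with the empty vector and 733 ± 43.8 with ARID1A WT, 374 ± 1.32 with 42YS, but 247 ± 52.6 in the libraries labelled AQGscram, not above the control (-0.22 ± 0.09, adjusted p = 0.0645). ARID1B RNA was 98.0 ± 6.54 CPM with the empty vector and from 344 ± 0.277 (Block9del) to 4250 ± 96.2 (M2) with ARID1B constructs. DDX4 RNA was 46.0 ± 0.626 CPM in the DDX4 hybrid and under 0.2 in the other groups. The defining endometrial markers ESR1 and PGR were at 0 in 27 of 28 libraries, PAX8 at 0 in 14, and EPCAM reached at most 0.81 CPM, whereas KRT18 (9.89 to 83.2 CPM) and HOXA10 (5.83 to 22.7 CPM) were found in every library. Of 7 markers of other cell types, PTPRC, CD3E and PECAM1 were at 0 in 23, 26 and 22 libraries, and only CD68 (1.18 to 16.5 CPM) and PDGFRB (1.24 to 35.2 CPM) were at 1 CPM or more in all. In such bulk RNA, fewer cells with a gene and less RNA per cell cannot be told apart.

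**Figure D1:**
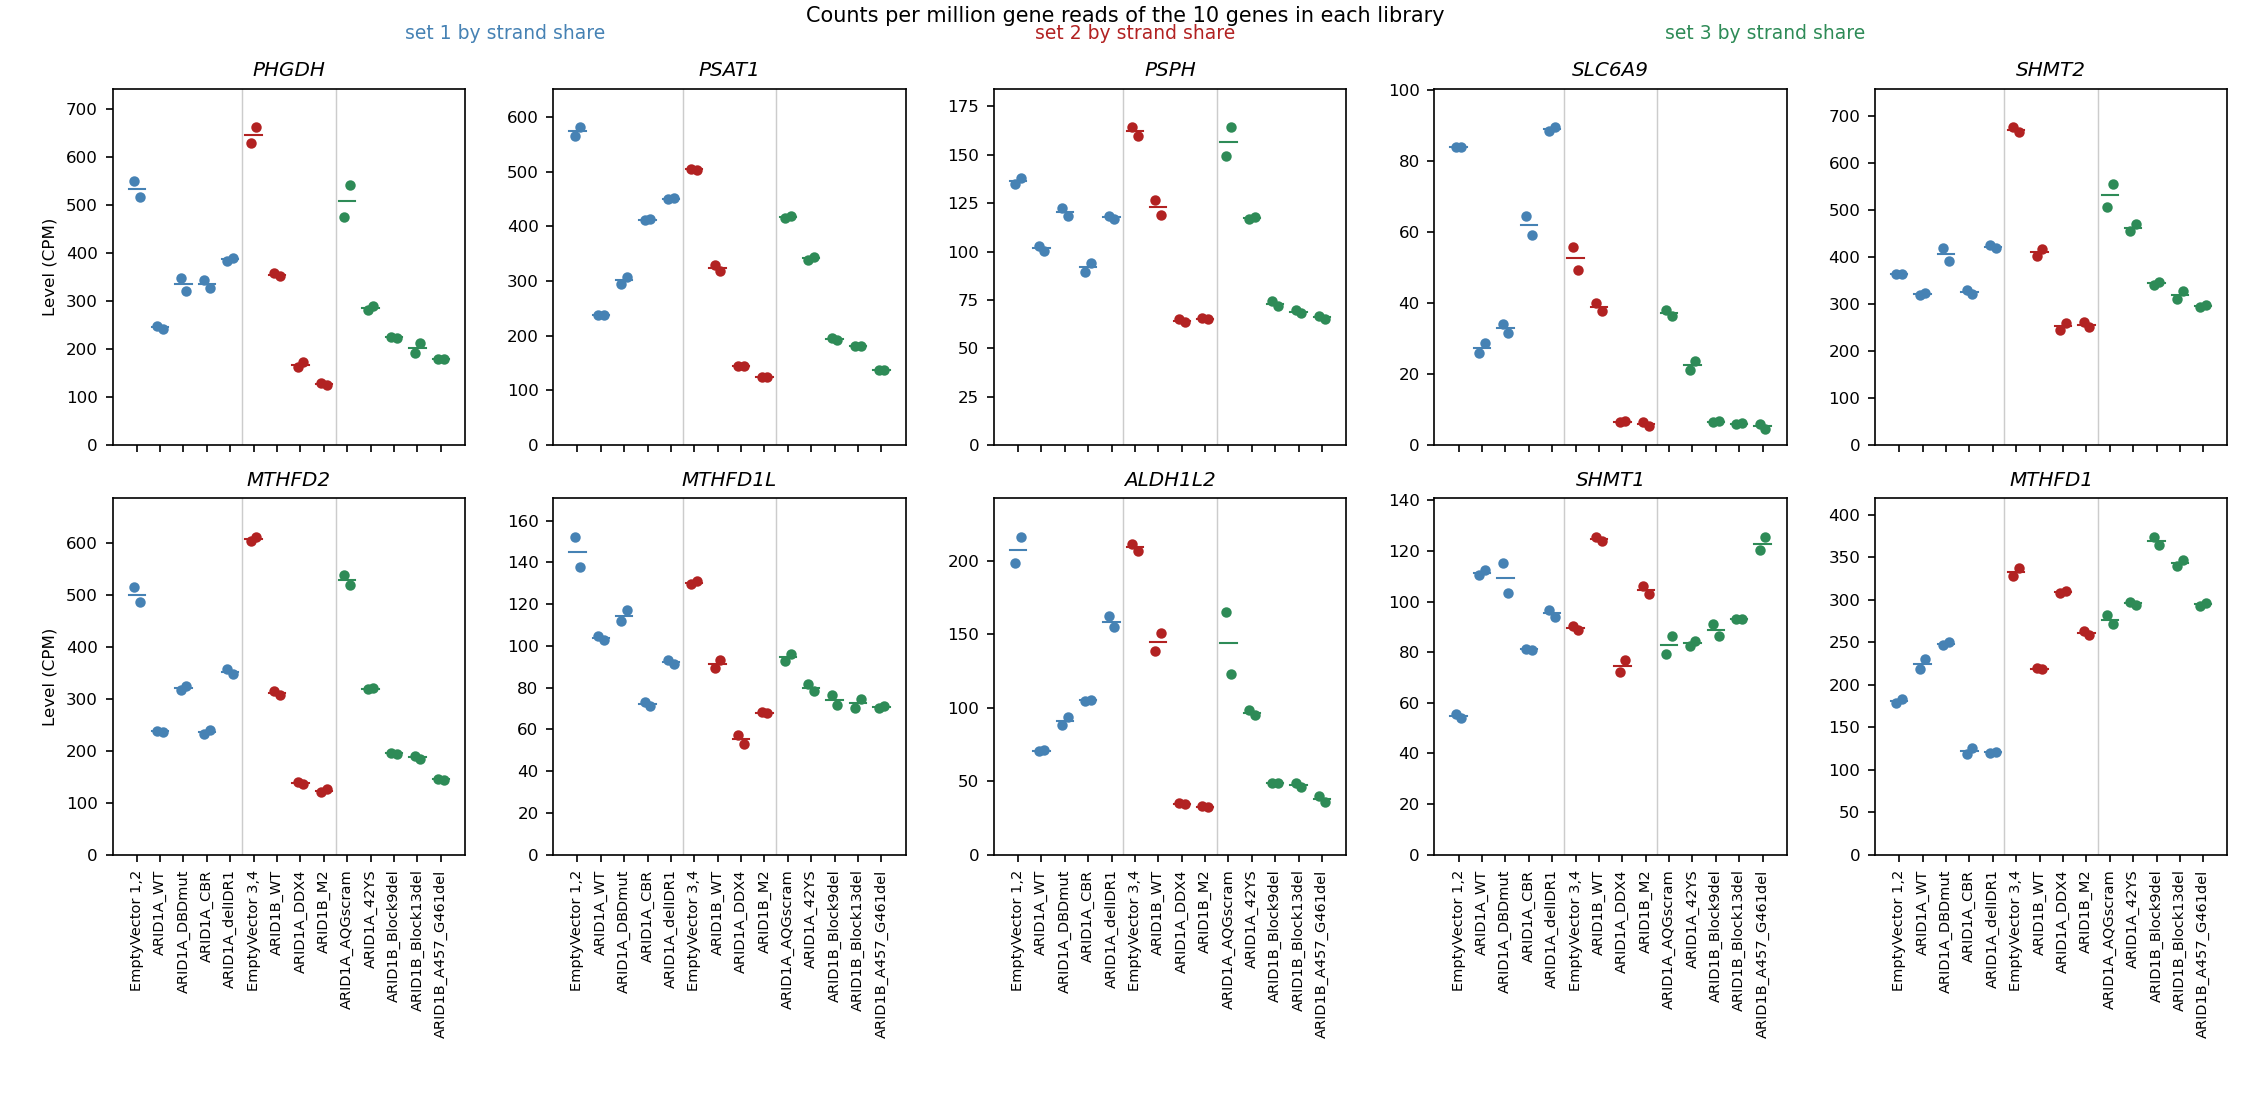
Level of each gene (CPM, y axis from 0) in each library (points), with group means (lines), by construct; colours mark the 3 sets by strand share. ARID1B M2, the DDX4 hybrid and the 3 ARID1B deletions of set 3 have the lowest SLC6A9 levels, 4.50 to 6.78 CPM, whereas SHMT1 and MTHFD1 do not follow that order.

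The empty vector pairs differed from each other in 9 of the 10 genes, so the pair used as control matters for every member except ALDH1L2. Replicates 3 and 4 were higher in 6 genes and lower in 3, where 28.8% of all genes tested were higher and 29.7% lower. SHMT2 stood at 364 and 364 CPM in replicates 1 and 2 and at 677 and 666 in replicates 3 and 4 (log2 fold change 0.88 ± 0.05, adjusted p = 2.30e-14; errors of log2 fold changes are SE). MTHFD1 differed as much (178 and 183 against 328 and 338 CPM, 0.88 ± 0.04, adjusted p = 1.96e-15), and SHMT1 by 0.72 ± 0.06, adjusted p = 5.77e-11. SLC6A9 went the other way, from 84.1 and 84.0 to 55.9 and 49.4 CPM (-0.68 ± 0.07, adjusted p = 1.30e-08). PHGDH (0.28 ± 0.06), PSPH (0.25 ± 0.05) and MTHFD2 (0.28 ± 0.04) were higher and PSAT1 (-0.19 ± 0.04) and MTHFD1L (-0.15 ± 0.05) lower by less. The MTHFD1L call was lost without empty vector replicate 1 (-0.08, adjusted p = 0.274) or 3 (-0.15, adjusted p = 0.0643). ALDH1L2 did not differ detectably (0.01 ± 0.08, adjusted p = 0.922).

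Per kilobase of exon (GENCODE v29), the serine synthesis genes PHGDH and PSAT1 had the highest levels of the 10 in empty vector replicates 1 and 2, 200.2 and 262 CPM per kb. SHMT2 (120.3) and MTHFD2 (112 CPM per kb) came next. Their cytosolic counterparts were lower, with 19.4 CPM per kb for SHMT1 and 26.2 for MTHFD1. SLC6A9 was at 19.5 CPM per kb. In replicates 3 and 4, the controls of ARID1B M2, SHMT2 (222) was close to PHGDH (242) and PSAT1 (230.4 CPM per kb), with MTHFD2 at 137 and SHMT1 at 31.8. With M2 SHMT2 led with 84.7 CPM per kb, and PHGDH was at 47.7. SHMT1, at 37.1 CPM per kb, then lay above MTHFD2 (27.6).

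PHGDH, which oxidises phosphoglycerate in the first step of serine synthesis, fell with all 7 constructs that have an own pair. It stood at 549 and 517 CPM in empty vector replicates 1 and 2, 249 and 242 with ARID1A WT, 344 and 326.9 with CBR, 349 and 320.1 with DBDmut and 383 and 389.6 with delIDR1. All construct libraries of set 1 were below both control libraries, and those of ARID1A WT were the lowest. ARID1A WT had 0.460 of the control level (-1.12 ± 0.06, adjusted p = 9.27e-15). In set 2 the gene went from 629 and 662 CPM with the empty vector to 358 and 352 with ARID1B WT, 162 and 173 with the DDX4 hybrid and 130.0 and 124 with M2. These 4 groups did not overlap, and M2 was at 0.197 of its control (-2.34 ± 0.06, adjusted p = 3.76e-21) against 0.550 for ARID1B WT (-0.86 ± 0.06, adjusted p = 2.93e-12). In set 3, PHGDH was at 475 and 543 CPM in the libraries labelled AQGscram, 281 and 291 with 42YS, 225 and 224 with Block9del, 191 and 213 with Block13del and 178 and 179.7 with A457_G461del. The libraries labelled AQGscram overlapped the empty vector libraries, and the other 4 groups lay below all of them.

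PSAT1, the aminotransferase of the second step, also fell with all 7 constructs. It stood at 565 and 582 CPM in empty vector replicates 1 and 2 and at 239 and 238 with ARID1A WT, 294 and 308 with DBDmut, 411 and 413 with CBR and 449 and 451 with delIDR1. None of these groups overlapped, and PSAT1 fell most with ARID1A WT (-1.27 ± 0.04, adjusted p = 4.82e-20) and least with delIDR1 (-0.35 ± 0.04, adjusted p = 1.32e-08). From 504 and 504 CPM in empty vector replicates 3 and 4 it went to 329 and 319 with ARID1B WT, 144 and 145 with the DDX4 hybrid and 124 and 124 with M2. The M2 level was 0.246 of the control (-2.02 ± 0.04, adjusted p = 5.48e-24), the ARID1B WT level 0.643 (-0.64 ± 0.04, adjusted p = 1.80e-13). In set 3 it was 415 and 419.9 CPM in the libraries labelled AQGscram, 338 and 345 with 42YS, 195 and 191 with Block9del, 182 and 181 with Block13del and 138 and 136 with A457_G461del. Over all 13 groups no neighbours in the order of PSAT1 levels overlapped, from the empty vector (503.7 to 582 CPM) to M2.

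PSPH, the phosphatase of the last step, fell with the same 7 constructs, by less than PHGDH in each and by less than PSAT1 in all but CBR. Its level was 135 and 138 CPM in empty vector replicates 1 and 2 and 103 and 101 with ARID1A WT, 89.7 and 93.9 with CBR, 118 and 117 with delIDR1 and 122 and 119 with DBDmut. CBR was the lowest of set 1 (-0.57 ± 0.05, adjusted p = 1.97e-10). In set 2 it went from 164 and 159.9 CPM to 127 and 119 with ARID1B WT, 65.5 and 65.0 with M2 and 65.0 and 63.5 with the DDX4 hybrid. M2 (-1.31 ± 0.05, adjusted p = 9.93e-18) and the DDX4 hybrid (-1.34 ± 0.05, adjusted p = 1.65e-17) lay next to each other and below ARID1B WT (-0.40 ± 0.05, adjusted p = 1.24e-07). In set 3 it was 149 and 164 CPM in the libraries labelled AQGscram, 117 and 118 with 42YS and between 65.3 and 74.5 with the 3 ARID1B deletions.

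SLC6A9, the glycine transporter, had the widest range of the 10. It was at 84.1 and 84.0 CPM in empty vector replicates 1 and 2, 25.8 and 28.9 with ARID1A WT, 34.2 and 31.7 with DBDmut, 64.6 and 59.3 with CBR and 88.7 and 89.7 with delIDR1. ARID1A WT was at 0.327 of its control (-1.61 ± 0.08, adjusted p = 1.24e-15), while delIDR1 did not pass the test (0.09 ± 0.07, adjusted p = 0.295). From 55.9 and 49.4 CPM in empty vector replicates 3 and 4 it went to 40.1 and 37.9 with ARID1B WT, 6.47 and 6.68 with the DDX4 hybrid and 6.38 and 5.25 with M2. M2 was thus at 0.112 of the control (-3.16 ± 0.10, adjusted p = 1.99e-19), and ARID1B WT at 0.742 (-0.43 ± 0.08, adjusted p = 4.85e-05). These M2 libraries still held 167 and 118 reads of the gene. Of the strand-assigned reads of SLC6A9, 11.9 to 18.1% lay on the gene's own strand in set 1, 0.225 to 2.30% in set 2 and 2.05 to 14.2% in set 3, and the counts leave those out. Both CBR libraries lay below empty vector replicates 1 and 2 but above 3 and 4, so the direction with CBR depends on the pair used. Those of delIDR1 lay above all 4 empty vector libraries. In set 3 SLC6A9 was at 38.0 and 36.5 CPM in the libraries labelled AQGscram, 21.3 and 23.6 with 42YS, 6.43 and 6.78 with Block9del, 5.82 and 6.18 with Block13del and 6.03 and 4.50 with A457_G461del. The 5 lowest groups, at 4.50 to 6.78 CPM, lay apart from the other 8, of which the lowest library had 21.3 CPM.

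MTHFD2, the mitochondrial methylenetetrahydrofolate dehydrogenase, fell in all 7 constructs with an own pair. It went from 515 and 486 CPM in empty vector replicates 1 and 2 to 239 and 236 with ARID1A WT, 233 and 240.3 with CBR, 318 and 325 with DBDmut and 357 and 348 with delIDR1. ARID1A WT (-1.08 ± 0.04, adjusted p = 1.02e-17) and CBR (-1.08 ± 0.04, adjusted p = 2.39e-17) overlapped and were below the other 2. In set 2 it went from 604 and 612 CPM to 316 and 307 with ARID1B WT, 139.7 and 135 with the DDX4 hybrid and 120.5 and 126 with M2, a level of 0.202 of the control (-2.31 ± 0.04, adjusted p = 2.23e-24). In set 3 it was 538 and 519.5 CPM in the libraries labelled AQGscram, 319 and 320.3 with 42YS, 196 and 195 with Block9del, 189.5 and 185 with Block13del and 146 and 144 with A457_G461del. MTHFD2P1, the near copy of MTHFD2 in the files, held 11 reads in all libraries together and was at 0 in 20 of 28.

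ALDH1L2 had the widest range of the 4 mitochondrial enzymes, and fell with all 7 constructs. It went from 199 and 217 CPM in empty vector replicates 1 and 2 to 70.3 and 71.3 with ARID1A WT, 88.5 and 93.7 with DBDmut, 105 and 105 with CBR and 162 and 155 with delIDR1. In set 2, 212 and 207 CPM with the empty vector became 139 and 151 with ARID1B WT, 35.2 and 34.2 with the DDX4 hybrid and 33.1 and 32.2 with M2. ARID1A WT was at 0.341 of its control (-1.55 ± 0.08, adjusted p = 1.28e-14), ARID1B WT at 0.693 (-0.53 ± 0.08, adjusted p = 3.74e-06) and M2 at 0.156 (-2.68 ± 0.09, adjusted p = 5.89e-19). Since its empty vector pairs were alike, the set 3 values changed little with the pair: 42YS was at -1.10 ± 0.08 and -1.11 ± 0.08, and A457_G461del at -2.46 ± 0.09 and -2.47 ± 0.09, against replicates 1 and 2 and against 3 and 4. Both libraries labelled AQGscram were unlike, at 165 and 123 CPM.

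MTHFD1L, the mitochondrial formate-releasing enzyme, also fell in all 7, over a narrower range. The control libraries had 152 and 138 CPM (replicates 1 and 2) and 129.7 and 131 (3 and 4). Against its own pair the fall was smallest with DBDmut (112 and 117 CPM, -0.34 ± 0.05, adjusted p = 2.97e-06) and largest with the DDX4 hybrid (57.3 and 53.3 CPM, -1.24 ± 0.05, adjusted p = 5.71e-16). In set 1 CBR was lowest (73.3 and 71.4 CPM, -1.01 ± 0.05, adjusted p = 1.63e-14), below ARID1A WT (105 and 103 CPM, -0.48 ± 0.05, adjusted p = 1.05e-08), the reverse of SLC6A9 and PSAT1. ARID1B WT (89.6 and 93.3 CPM) and M2 (68.4 and 67.8 CPM) did not overlap.

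SHMT2, which makes glycine and loads folate in mitochondria, changed direction with the construct and with the empty vector pair. Against 364 and 364 CPM in empty vector replicates 1 and 2, it fell slightly with ARID1A WT (320.2 and 325 CPM, -0.18 ± 0.05, adjusted p = 0.00235) and CBR (329.6 and 322 CPM, -0.16 ± 0.05, adjusted p = 0.00463). It rose with delIDR1 (426 and 419 CPM, 0.22 ± 0.05, adjusted p = 3.59e-04) and DBDmut (419.6 and 392 CPM, 0.16 ± 0.05, adjusted p = 0.00621), the last of which was lost without DBDmut replicate 1 (0.11, adjusted p = 0.118). Against 677 and 666 CPM in replicates 3 and 4 it fell with ARID1B WT (403 and 418 CPM, -0.71 ± 0.05, adjusted p = 1.69e-12), the DDX4 hybrid (245 and 259.7 CPM, -1.41 ± 0.05, adjusted p = 2.02e-18) and M2 (261 and 252 CPM, -1.39 ± 0.05, adjusted p = 1.15e-18). The libraries of every construct in sets 1 and 2 lay below replicates 3 and 4, whereas those of ARID1B WT, delIDR1 and DBDmut lay above replicates 1 and 2. The rises with delIDR1 and DBDmut and the fall with ARID1B WT thus depend on the pair used. In set 3 A457_G461del fell against replicates 1 and 2 (-0.30 ± 0.05) and against 3 and 4 (-1.18 ± 0.05), as did Block13del (-0.19 ± 0.05 and -1.07 ± 0.05). Block9del passed the test only against 3 and 4 (-0.08 ± 0.05 and -0.97 ± 0.05). For the libraries labelled AQGscram (0.55 ± 0.05 and -0.34 ± 0.05) and for 42YS the direction turned with the pair: 42YS (456 and 470.4 CPM) was at 0.35 ± 0.05 against replicates 1 and 2 and at -0.54 ± 0.05 against 3 and 4, both past the test in opposite directions.

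SHMT1, the cytosolic counterpart, was higher in 6 of the 7 constructs with an own pair. It went from 55.5 and 53.9 CPM in empty vector replicates 1 and 2 to 111 and 112 with ARID1A WT, 115 and 103 with DBDmut, 96.8 and 94.1 with delIDR1 and 81.5 and 81.1 with CBR. ARID1A WT was 2.04-fold its control (1.03 ± 0.06, adjusted p = 1.76e-14). In set 2, from 90.6 and 89.0 CPM, it rose with ARID1B WT (126 and 124 CPM, 0.48 ± 0.05, adjusted p = 5.24e-08) and M2 (106 and 103 CPM, 0.22 ± 0.05, adjusted p = 0.00140) and fell with the DDX4 hybrid (72.3 and 77.0 CPM, -0.27 ± 0.06, adjusted p = 2.83e-04). The CBR libraries lay below empty vector replicates 3 and 4, and those of the DDX4 hybrid above replicates 1 and 2. The rise with CBR and the fall with the DDX4 hybrid thus depend on the pair used. The other constructs of sets 1 and 2 lay above both pairs, by less over replicates 3 and 4. In set 3 SHMT1 was at 120.3 and 126 CPM with A457_G461del and between 79.2 and 93.2 in the other 4 groups.

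MTHFD1, the cytosolic enzyme that takes up formate, rose with 2 of the 7 constructs and fell with 5 against the own pair, and 5 of these 7 directions turned with the pair. Against 178 and 183 CPM in empty vector replicates 1 and 2 it rose with ARID1A WT (218 and 229.9 CPM, 0.31 ± 0.04, adjusted p = 4.18e-07) and DBDmut (247 and 250.4 CPM, 0.46 ± 0.04, adjusted p = 5.03e-10). It fell with CBR (118 and 126 CPM, -0.57 ± 0.04, adjusted p = 1.59e-11) and delIDR1 (119.6 and 121 CPM, -0.58 ± 0.04, adjusted p = 1.19e-11), which had the lowest levels of all groups. Against 328 and 338 CPM in replicates 3 and 4 it fell with ARID1B WT (219.6 and 219 CPM, -0.60 ± 0.04, adjusted p = 3.32e-12) and M2 (263 and 259 CPM, -0.35 ± 0.04, adjusted p = 5.51e-08). With the DDX4 hybrid the small fall (308 and 309.9 CPM, -0.11 ± 0.04, adjusted p = 0.0292) was lost without DDX4 hybrid replicate 1 (adjusted p = 0.126) or 2 (adjusted p = 0.0901) or empty vector replicate 4 (-0.09, adjusted p = 0.177). Against replicates 1 and 2 instead, ARID1B WT (0.28 ± 0.04), M2 (0.53 ± 0.04) and the DDX4 hybrid (0.77 ± 0.04) were higher, and against 3 and 4, ARID1A WT (-0.57 ± 0.04) and DBDmut (-0.42 ± 0.04) were lower. CBR and delIDR1 were lower against either pair. Within set 3 it was highest with Block9del, at 374 and 365 CPM.

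**Figure D2:**
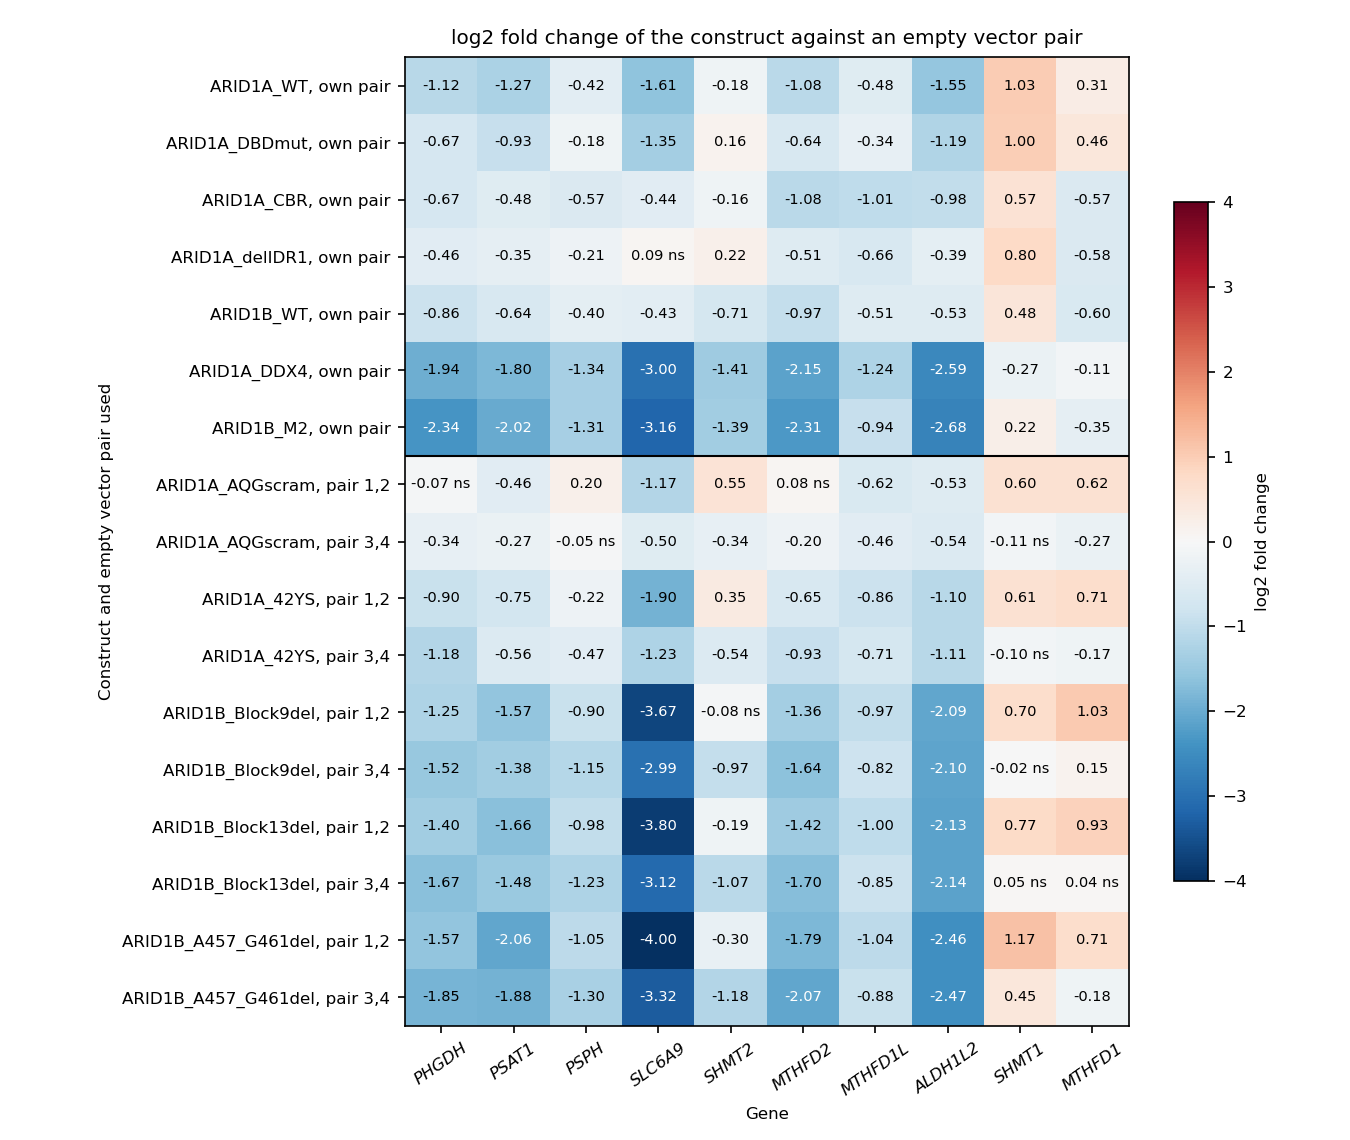
log2 fold change of each gene (columns) in each construct against an empty vector pair (rows; above the line the own pair, below it each pair in turn), where blue is lower, red higher and ns an adjusted p of at least 0.05. Columns from PHGDH to ALDH1L2 are mostly blue, with SLC6A9 at -3.16 with M2, and the SHMT2, SHMT1 and MTHFD1 columns change colour with the pair in set 3.

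By construct, most members were lower than the control, against backgrounds that are themselves large. Against the own pair, ARID1A WT lowered 8 members (30.8% of all genes fell) and raised 2 (29.9% rose). CBR lowered 9 (30.8%) and raised 1 (28.7%), delIDR1 lowered 7 (31.1%) and raised 2 (25.2%), and DBDmut lowered 7 (29.1%) and raised 3 (30%). In set 2, ARID1B WT lowered 9 (28.5%) and raised 1 (23.6%), M2 lowered 9 (27.7%) and raised 1 (25.4%), and the DDX4 hybrid lowered all 10 (24.4%). The median over the 10 genes was -1.71 with M2, -1.61 with the DDX4 hybrid, -0.78 with ARID1A WT, -0.57 with ARID1B WT and -0.37 with delIDR1. Over all genes tested the medians of these 5 comparisons lay between -0.04 and 0.03. The 4 constructs of set 1 share their controls, as do the 3 of set 2.

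Against all 4 empty vector libraries 7 or 8 members fell with 11 of the 12 constructs. Members fell in 8 cases with ARID1A WT (23.5% of all genes fell), 8 with CBR (27.8%), 7 with delIDR1 (27.7%), 7 with DBDmut (18.3%) and 8 with the DDX4 hybrid (19.8%). ARID1B WT lowered 7 (23.9%), M2 8 (25.1%), A457_G461del 8 (19.9%), Block13del 8 (20.2%), Block9del 8 (21.2%) and 42YS 7 (18%), and the libraries labelled AQGscram 4 (13.7%). In fits of just the 2 groups compared, 29 of the 96 calls were lost, and the members called, in either direction, numbered 4 with delIDR1 (9 before), 4 with DBDmut (8), 5 with ARID1B WT (8) and 0 in the libraries labelled AQGscram (4). For delIDR1, DBDmut and ARID1B WT the share of all genes called in these fits is not given here. These losses are thus not a result about the members. SHMT1 was the member that rose with ARID1A WT (21.1% of all genes rose), DBDmut (16.9%), ARID1B WT (19.2%), M2 (22.1%) and A457_G461del (19.1%), MTHFD1 with Block9del (17.8%), and SHMT1 and SLC6A9 with delIDR1 (22.4%). Against empty vector replicates 1 and 2 alone, the libraries labelled AQGscram had 4 members lower and 4 higher (30.8% and 29.4% of all genes), and against 3 and 4 alone 8 lower and 0 higher (18.8% and 15.2%). With delIDR1 both rises were lost without either delIDR1 library (SHMT1 0.38 and 0.41, adjusted p = 0.141 and 0.103; SLC6A9 0.38 and 0.36, adjusted p = 0.153 and 0.175). The SHMT1 rise was also lost without empty vector replicate 1 or 2 (adjusted p = 0.0773 and 0.0728) and the SLC6A9 rise without replicate 3 or 4 (adjusted p = 0.108 and 0.104). Other calls lost without 1 library were SHMT1 with DBDmut without its replicate 1 (0.52, adjusted p = 0.0564), PSPH with ARID1B WT without its replicate 2 (-0.23, adjusted p = 0.0614) and SHMT2 with Block13del without its replicate 1 (-0.66, adjusted p = 0.0708). With Block9del, SHMT2 (-0.58 and -0.60, adjusted p = 0.107 and 0.0892) and MTHFD1 (0.51 and 0.54, adjusted p = 0.123 and 0.0899) were lost without its replicate 1 and 2.

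Both truncations of ARID1A kept more PHGDH, PSAT1, ALDH1L2 and SLC6A9 RNA than ARID1A WT did. With delIDR1 against ARID1A WT, 6 members were higher (17.4% of all genes) and 1 lower (22.7%). SLC6A9 was 3.26-fold (1.70 ± 0.19, adjusted p = 1.05e-06), ALDH1L2 2.24-fold (1.16 ± 0.09, adjusted p = 1.44e-08), PSAT1 1.89-fold (0.92 ± 0.06, adjusted p = 2.04e-09) and PHGDH 1.57-fold (0.66 ± 0.10, adjusted p = 2.50e-05) the ARID1A WT level. MTHFD2 was 1.48-fold (0.57 ± 0.08), and MTHFD1 was lower (-0.89 ± 0.21, adjusted p = 0.00231). The sixth rise, PSPH (0.21 ± 0.08, adjusted p = 0.0393), was lost without any 1 of the 4 libraries compared (0.19 to 0.23, adjusted p = 0.0995 to 0.159). With CBR 4 members were higher (22.2% of all genes) and 3 lower (25.3%). SLC6A9 (1.18 ± 0.19, adjusted p = 4.48e-05), PSAT1 (0.79 ± 0.06, adjusted p = 9.71e-09), ALDH1L2 (0.57 ± 0.09) and PHGDH (0.45 ± 0.09) rose, while MTHFD1L (-0.52 ± 0.07, adjusted p = 5.18e-06) and MTHFD1 (-0.88 ± 0.21, adjusted p = 0.00200) fell. The fall of SHMT1 (-0.46 ± 0.17, adjusted p = 0.0361) was lost without any 1 of the 4 libraries (-0.47 to -0.44, adjusted p = 0.0964 to 0.117). MTHFD2 did not differ detectably between CBR and ARID1A WT (-0.00 ± 0.08).

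DBDmut stayed nearer to ARID1A WT, with 4 members higher (0.999% of all genes were higher) and 0 lower. These were MTHFD2 (0.44 ± 0.08, adjusted p = 0.00186), PSAT1 (0.34 ± 0.06, adjusted p = 0.00180), PHGDH (0.45 ± 0.09, adjusted p = 0.00584) and ALDH1L2 (0.36 ± 0.09, adjusted p = 0.0231). PHGDH was lost without DBDmut replicate 1 (0.38, adjusted p = 0.0991) or ARID1A WT replicate 2 (0.43, adjusted p = 0.0750), and ALDH1L2 without any 1 of the 4 libraries (0.32 to 0.40, adjusted p = 0.0747 to 0.178). The count was thus 2 without DBDmut replicate 1 or ARID1A WT replicate 2, and 8 in a fit, chosen after seeing the data, that treats each empty vector pair as its own group. That fit called 2711 of all genes in this comparison, of which 1184 were higher, against 799 in the fit of 13 groups. SLC6A9 (0.27 ± 0.19, adjusted p = 0.589), SHMT2 (0.33 ± 0.21) and SHMT1 (-0.03 ± 0.17) did not pass the test.

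ARID1B M2, which lacks S320_G327, had lower levels of 8 members than ARID1B WT (6.01% of all genes were lower) and none higher. SLC6A9 was at 0.150 of the ARID1B WT level (-2.74 ± 0.21, adjusted p = 3.54e-08), ALDH1L2 at 0.226 (-2.15 ± 0.10, adjusted p = 2.47e-11), PHGDH at 0.358 (-1.48 ± 0.10, adjusted p = 4.80e-09), PSAT1 at 0.383 (-1.39 ± 0.06, adjusted p = 3.50e-11) and MTHFD2 at 0.395 (-1.34 ± 0.08, adjusted p = 2.56e-09). PSPH (-0.91 ± 0.08, adjusted p = 1.90e-07) and MTHFD1L (-0.43 ± 0.07, adjusted p = 2.97e-04) fell by less. SHMT2 (-0.68 ± 0.21, adjusted p = 0.0362) was lost without any 1 of the 4 libraries (-0.70 to -0.65, adjusted p = 0.117 to 0.181). SHMT1 (-0.26 ± 0.17) and MTHFD1 (0.25 ± 0.21) did not pass the test in this fit of 13 groups. Its spread takes in the 4 empty vector libraries, whose pairs differed in both genes. SHMT1 was at 103 to 106 CPM with M2 and at 124 to 126 with ARID1B WT. MTHFD1 was at 259 to 263 CPM with M2 and at 219 to 220 with ARID1B WT. ARID1B RNA itself was 4250 ± 96.2 CPM with M2 and 3597 ± 225 with ARID1B WT. The DDX4 hybrid, in the same set, had 9 members lower than ARID1B WT (17.8%), with SLC6A9 at -2.57 ± 0.21, adjusted p = 1.33e-08 and SHMT1 at -0.74 ± 0.17, adjusted p = 0.00218. Its SHMT2 call (-0.70 ± 0.21, adjusted p = 0.0137) was lost without DDX4 hybrid replicate 1 (-0.65, adjusted p = 0.0905) or 2 (-0.74, adjusted p = 0.0548) or ARID1B WT replicate 2 (-0.67, adjusted p = 0.0673).

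**Figure D3:**
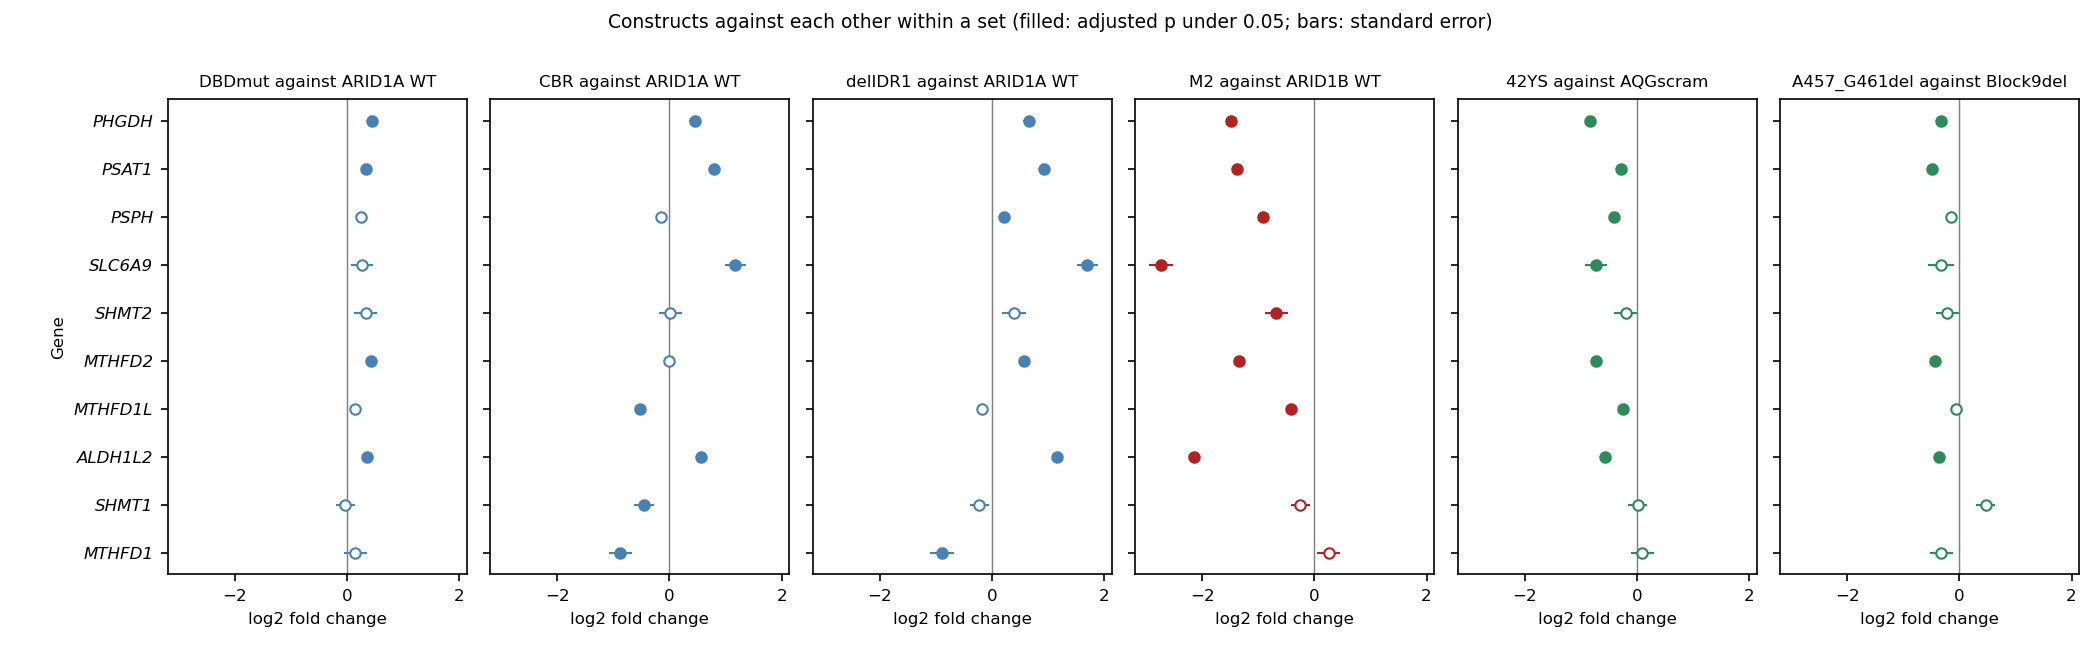
log2 fold change (x axis) of each gene (y axis) between constructs of the same set, with its standard error; filled points passed an adjusted p of 0.05. SLC6A9 lies at 1.70 for delIDR1 against ARID1A WT and at -2.74 for M2 against ARID1B WT, and MTHFD1 at -0.89 for delIDR1.

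Within set 3, 42YS had 7 members lower than the libraries labelled AQGscram (7.54% of all genes were lower) and none higher. PHGDH was at 0.561 of the AQGscram level (-0.83 ± 0.10, adjusted p = 9.00e-06), MTHFD2 at 0.605 (-0.73 ± 0.08, adjusted p = 8.63e-06) and ALDH1L2 at 0.671 (-0.58 ± 0.09, adjusted p = 2.82e-04). PSPH (-0.42 ± 0.08) and PSAT1 (-0.29 ± 0.06) fell too. SLC6A9 (-0.73 ± 0.19, adjusted p = 0.0120) was lost without AQGscram replicate 2 (-0.76, adjusted p = 0.0565) or 42YS replicate 1 (-0.66, adjusted p = 0.118), and MTHFD1L (-0.24 ± 0.07, adjusted p = 0.0195) without AQGscram replicate 2 or either 42YS library (-0.27 to -0.21, adjusted p = 0.0680 to 0.149). The libraries labelled AQGscram differed from each other more than any other replicate pair (chi-square per gene 30.4, against 1.18 to 4.99 in the other pairs of a set), and a fit of these 2 groups alone called 4 members. The share of all genes called in that fit is not given here.

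Among the ARID1B deletions of set 3, A457_G461del had the lowest PHGDH and PSAT1 levels. Against Block9del 4 members were lower (4.39% of all genes): PSAT1 (-0.50 ± 0.06, adjusted p = 1.98e-05), MTHFD2 (-0.43 ± 0.08, adjusted p = 0.00135), ALDH1L2 (-0.36 ± 0.09, adjusted p = 0.0141) and PHGDH (-0.33 ± 0.10, adjusted p = 0.0276). PHGDH was lost without any 1 of the 4 libraries (-0.34 to -0.32, adjusted p = 0.108 to 0.148), and ALDH1L2 without A457_G461del replicate 2 or either Block9del library (-0.37 to -0.30, adjusted p = 0.0675 to 0.155), which left 2 calls in those 3 cases. Against Block13del 2 were lower (1.89%), PSAT1 (-0.40 ± 0.06, adjusted p = 5.39e-04) and MTHFD2 (-0.37 ± 0.08, adjusted p = 0.00982), and MTHFD2 was lost without any 1 of the 4 libraries (-0.39 to -0.35, adjusted p = 0.0505 to 0.107), which left 1. In the fit with each empty vector pair as its own group, the comparison with Block9del called 8 members and 4490 of all genes (1790 in the fit of 13 groups), and that with Block13del 6 members and 2850 of all genes (779). Between Block13del and Block9del no member passed the test in edgeR, where 0% of all genes fell, 67 genes rose and 606 had an unadjusted p under 0.05. The member differences between them ran from -0.15 to 0.07. These constructs also differ in ARID1B RNA, at 2236 ± 32.9 CPM with A457_G461del, 883 ± 7.14 with Block13del and 344 ± 0.277 with Block9del; its part in the result was not tested.

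Constructs of different sets were compared by the difference of their own-pair responses, in which the differences between the empty vector pairs take part. The response to ARID1A WT was lower than that to ARID1B WT in 4 members (18.7% of all genes) and higher in 3 (22.9%). SLC6A9 fell further with ARID1A WT (difference -1.18 ± 0.11, adjusted p = 3.31e-09), as did ALDH1L2 (-1.02 ± 0.12) and PSAT1 (-0.63 ± 0.05). The SLC6A9 difference takes in that between its empty vector pairs (-0.68). Its levels were 27.4 ± 2.19 CPM with ARID1A WT and 39.0 ± 1.56 with ARID1B WT. The 3 higher differences, MTHFD1 (0.92 ± 0.06, adjusted p = 3.67e-12), SHMT1 (0.55 ± 0.08) and SHMT2 (0.53 ± 0.07), take in those between the empty vector pairs, which differed by 0.88 ± 0.04, 0.72 ± 0.06 and 0.88 ± 0.05. Against replicates 1 and 2 for both constructs, MTHFD1 was at 0.31 ± 0.04 with ARID1A WT and 0.28 ± 0.04 with ARID1B WT, SHMT1 at 1.03 ± 0.06 and 1.19 ± 0.06, and SHMT2 at -0.18 ± 0.05 and 0.17 ± 0.05. SHMT2 and SHMT1 were thus lower with ARID1A WT when both constructs were set against 1 pair. That sets a construct of set 1 beside a construct of set 2, so set and construct cannot be told apart. It was not tested. The PHGDH difference (-0.26 ± 0.08, adjusted p = 0.0147) was lost without ARID1A WT replicate 2 (-0.24, adjusted p = 0.0556) or empty vector replicate 1 (-0.21, adjusted p = 0.0794) or 3 (-0.22, adjusted p = 0.0707). MTHFD2 (-0.11 ± 0.06), PSPH (-0.02 ± 0.07) and MTHFD1L (0.03 ± 0.07) did not differ detectably. The response to the DDX4 hybrid was lower than that to ARID1A WT in all 10 members (25.2% of all genes), from -0.42 ± 0.06 for MTHFD1 to -1.38 ± 0.13 for SLC6A9. The differences for SHMT2 (-1.24) and SHMT1 (-1.29) take in those between the pairs (0.88 ± 0.05 and 0.72 ± 0.06). SHMT2 was at 253 ± 10.2 CPM with the DDX4 hybrid and 322 ± 3.21 with ARID1A WT. SHMT1 was at 74.7 ± 3.31 CPM with the DDX4 hybrid and 111 ± 1.30 with ARID1A WT. For MTHFD1 the direction turned when both were set against 1 pair: the DDX4 hybrid was at 0.77 ± 0.04 and ARID1A WT at 0.31 ± 0.04 against replicates 1 and 2. Here too set and construct cannot be told apart.

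Across the 13 group means, 8 of the members varied together, while SHMT1 and MTHFD1 had correlations with them near 0 or negative. Among PHGDH, PSAT1, PSPH, SLC6A9, SHMT2, MTHFD2, MTHFD1L and ALDH1L2 the Pearson r of mean log2 CPM ran from 0.698 to 0.974 over 28 pairs (median 0.903). With these 8, SHMT1 had r from -0.354 to 0.0237 and MTHFD1 from -0.754 to -0.150. The pair PSAT1 and ALDH1L2 had the highest value. After centring each of the 28 libraries on its set, the 8 ran from 0.625 to 0.978 (median 0.922). SHMT1 then ran from -0.392 to -0.0669 with them and MTHFD1 from -0.391 (SLC6A9) to 0.312 (MTHFD1L), where the value over group means had been -0.219. These values are descriptions, since the groups share a cell line, sets and library depth, and the grouping into 8 and 2 was made after the values were seen.

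**Figure D4:**
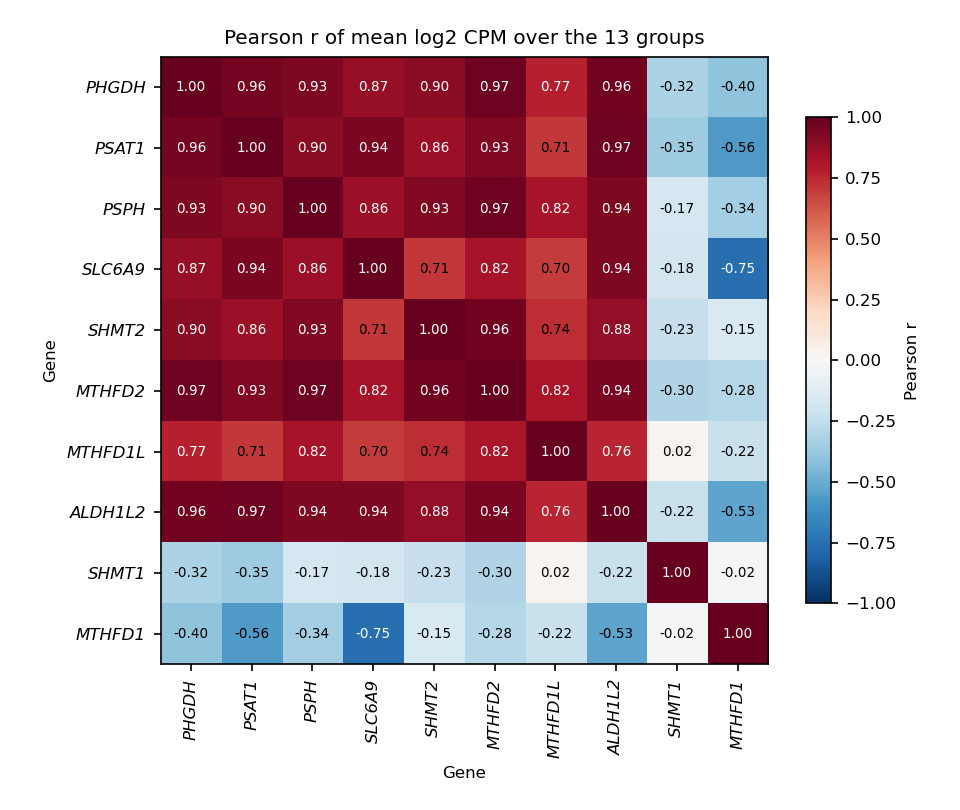
Pearson r of mean log2 CPM over the 13 groups for each pair of genes (rows and columns), red for positive and blue for negative. The block from PHGDH to ALDH1L2 is red, from 0.70 to 0.97, and the SHMT1 and MTHFD1 rows are near 0 or below.

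The genes with levels most like those of PHGDH, PSAT1, MTHFD2 and SLC6A9 over the 13 groups include other members of the 10. For PHGDH they were ASNS, the asparagine synthetase (r = 0.975), PCK2 (0.973), MTHFD2 (0.971), YARS (0.964) and ALDH1L2 (0.963). For PSAT1 they were YARS (0.985), a tyrosyl-tRNA synthetase, SLC7A5 (0.974), ALDH1L2 (0.974), SLC7A1 (0.970) and EIF4EBP1 (0.969). MTHFD2 was nearest to ASNS (0.980), SLC1A4 (0.980), PSPH (0.972), GPT2 (0.971) and PHGDH (0.971). SLC6A9 was nearest to ADM2 (0.982), AARS (0.977), TRAK2 (0.973), CLIC4 (0.971) and SLC7A11 (0.971), the cystine transporter. These are the 5 closest of 14220 genes tested for each member, over 13 groups that share a cell line.

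Against the own pair, ATF4 RNA fell with some of the constructs that lowered these genes and not with all. It was 444 ± 1.74 CPM in empty vector replicates 1 and 2 and 675 ± 17.3 in 3 and 4, a difference of 0.60 ± 0.05. Against the own pair it fell with the DDX4 hybrid (-1.65 ± 0.05, adjusted p = 9.62e-19), M2 (-1.45 ± 0.05, adjusted p = 5.26e-18), ARID1B WT (-0.51 ± 0.05) and ARID1A WT (-0.46 ± 0.05). It rose with delIDR1 (0.28 ± 0.05, adjusted p = 6.86e-05), where PHGDH, PSAT1 and MTHFD2 fell, and did not pass the test with CBR (0.12 ± 0.05, adjusted p = 0.0504) or DBDmut (-0.08 ± 0.05, adjusted p = 0.195). Only the falls with the DDX4 hybrid and M2 were larger than the difference between the pairs. Whether ATF4 was higher or lower with delIDR1, CBR and ARID1B WT thus depends on the pair used. CEBPG, a partner of ATF4, fell with ARID1A WT (-1.09 ± 0.05, adjusted p = 8.59e-17), DBDmut (-0.96 ± 0.05), the DDX4 hybrid (-1.32 ± 0.05), M2 (-1.23 ± 0.05) and ARID1B WT (-0.65 ± 0.05), rose with delIDR1 (0.25 ± 0.04) and did not pass with CBR (0.05 ± 0.04). DDIT3, which encodes the stress factor CHOP, fell with all 7, from -0.48 ± 0.08 with delIDR1 to -1.54 ± 0.09 with the DDX4 hybrid. MYC also fell with all 7, most with CBR (-1.35 ± 0.05, adjusted p = 2.17e-18) and delIDR1 (-1.29 ± 0.05). Of the 7 known regulators listed, 6 fell and 0 rose with ARID1A WT (30.8% and 29.9% of all genes), 4 fell and 1 rose with M2 (27.7% and 25.4%), and 4 fell and 2 rose with delIDR1 (31.1% and 25.2%). The 2 of 7 that rose with delIDR1 are near the share of all genes.

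Other genes of serine handling, like all genes tested, moved in both directions with every construct. Of 14 tested genes of serine transport and use, 6 fell and 5 rose with ARID1A WT (30.8% and 29.9% of all genes), 5 fell and 2 rose with ARID1B WT (28.5% and 23.6%), and 7 fell and 4 rose with M2 (27.7% and 25.4%), with medians of -0.07, -0.07 and -0.11. With CBR 8 fell and 5 rose (30.8% and 28.7%), and with delIDR1 8 fell and 4 rose (31.1% and 25.2%). With the DDX4 hybrid 7 fell (24.4% of all genes) and 4 rose (3712 of 14220 genes). The medians with CBR, delIDR1 and the DDX4 hybrid were -0.36, -0.14 and -0.17. DBDmut had 4 each way (29.1% of all genes fell and 30% rose) and a median of -0.06. SFXN3, a mitochondrial serine carrier, rose with all 7 constructs with an own pair, most with ARID1A WT (from 9.18 ± 0.998 to 25.1 ± 0.513 CPM, 1.45 ± 0.10, adjusted p = 8.65e-13). The neutral amino acid carriers SLC1A4 and SLC1A5 and CTH, which makes cysteine, named here after their values were seen, fell with M2 by 1.89 ± 0.06, 1.51 ± 0.06 and 1.69 ± 0.08 on the log2 scale. SDS, a serine dehydratase, was at 0 in empty vector replicates 1 and 2 and at 0.404 ± 0.157 CPM with ARID1A WT, too few reads for a fold.

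Counts of glycine, methionine and purine genes are given beside the shares of all genes, and differences between constructs in these counts were not tested. Of 9 genes of glycine cleavage and use, 2 fell and 2 rose with ARID1A WT, no more than the shares of all genes (30.8% and 29.9%). With M2 (27.7% of all genes fell) and with the DDX4 hybrid (24.4%) 6 fell and 0 rose against the own pair. Against all 4 empty vector libraries 3 fell with M2 (25.1% of all genes) and 2 with the DDX4 hybrid (19.8%), and 0 rose with either. GATM, which uses glycine for creatine synthesis, fell with ARID1A WT (0.903 ± 0.0693 to 0.252 ± 0.108 CPM, -1.77 ± 0.46, adjusted p = 0.00157), and DMGDH, a mitochondrial enzyme of choline breakdown, was at 0.678 ± 0.196 and 0.105 ± 0.0165 CPM. Of 6 purine synthesis genes, all 6 fell with CBR (30.8% of all genes), delIDR1 (31.1%) and ARID1B WT (28.5%), and 3 fell and 3 rose with ARID1A WT (30.8% and 29.9%). Between the empty vector pairs 5 of the 6 were higher in replicates 3 and 4 (28.8% of all genes) and 0 lower. Against all 4 empty vector libraries 4 fell with ARID1B WT (23.9%) and 3 with ARID1A WT (23.5%), and 0 rose with either. All 6 still fell with CBR (27.8%) and delIDR1 (27.7%). Compared directly with ARID1A WT, 5 of the 6 were lower with CBR (25.3% of all genes) and with delIDR1 (22.7%), as was MTHFD1. Of 5 tested methionine cycle genes, 3 fell and 1 rose with ARID1A WT (30.8% and 29.9%). MAT2A, which makes S-adenosylmethionine, was the largest of these (-1.39 ± 0.04, adjusted p = 9.25e-20). Its empty vector pairs differed more than those of any of the 10 members: 1018 ± 0.0456 CPM in replicates 1 and 2, 302 ± 2.19 in 3 and 4 (-1.75 ± 0.04, adjusted p = 1.06e-20). It was 1056 ± 8.16 CPM with CBR, 1218 ± 6.78 with delIDR1 and 1012 ± 6.58 with 42YS, and between 222 ± 5.27 and 408 ± 16.1 in the other 9 construct groups.

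Of 15 tested folate enzymes and carriers outside the 10 genes, 4 fell and 3 rose with ARID1A WT, near or below the shares of all genes (30.8% and 29.9%). With ARID1B WT 9 fell and 1 rose (28.5% and 23.6%), and with M2 5 fell and 2 rose (27.7% and 25.4%). Against all 4 empty vector libraries 4 fell and 1 rose with ARID1B WT (23.9% and 19.2%). With M2 4 fell and 2 rose against these 4 (25.1% and 22.1%). FOLR1, the folate receptor, was near 0 with the empty vector (0.0642 ± 0.0195 CPM) and reached 5.66 ± 1.14 CPM with ARID1A WT, 5.29 ± 0.296 with CBR, 7.87 ± 0.630 with delIDR1 and 1.24 ± 0.513 with ARID1B WT. With DBDmut it was 0.426 ± 0.145 CPM, and it passed the test against the own pair with all 7 constructs. The control libraries hold so few reads of it that no fold is given.

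**Figure D5:**
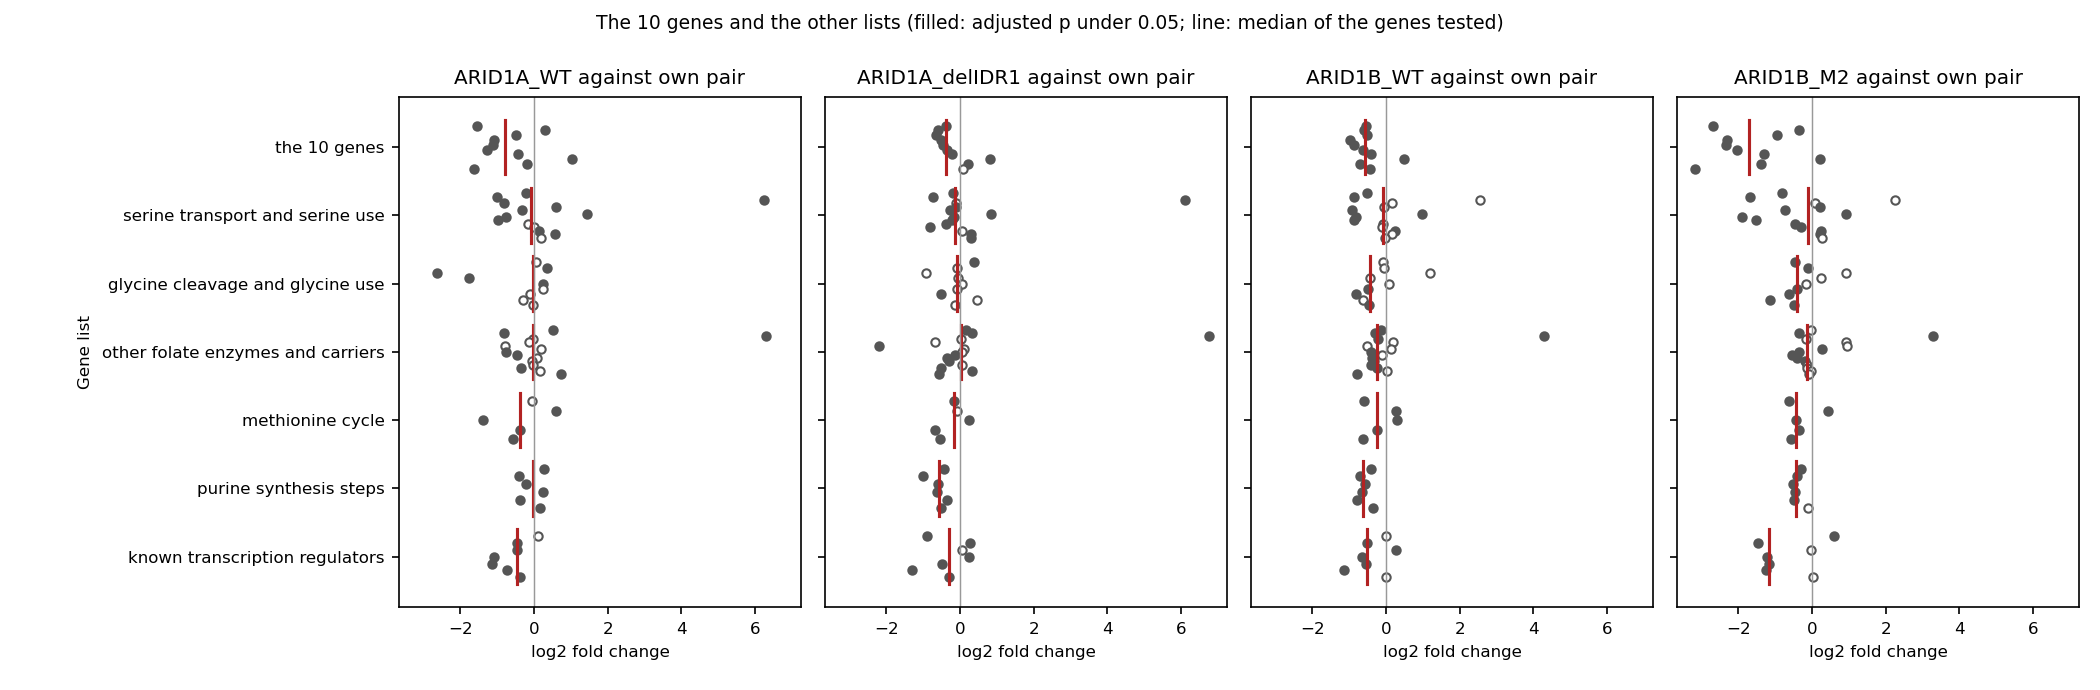
log2 fold change (x axis) of each tested gene (points, filled at an adjusted p under 0.05) of the 10 genes and 6 other lists (y axis) against the own empty vector pair in 4 constructs, with list medians as red lines. The median of the 10 genes is at -1.71 with M2, left of the other lists there, and the points beyond 6 are FOLR1 and SDS, with few control reads.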

How the data were processed

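Polyadenylated RNA of 28 AN3CA libraries was sequenced, and per the submitters' processing notes bcl2fastq, STAR 2.5.2b and Bowtie2 2.29 were used with build hg19. The annotation is not given in the sources used here. The authors deposited 1 file of raw read counts per gene for each library, with 3 count columns for strand. The column of the strand opposite the gene (column 4) was used, and its 4 summary lines, 21.6 to 36.3% of the reads, named no gene and were left out. Genes were filtered with edgeR's filterByExpr by group, scaled by TMM and tested by edgeR's quasi-likelihood test (edgeR 4.0.16, R 4.3.3) with Benjamini-Hochberg adjustment over all 14220 genes at 0.05. The SE of a log2 fold change was taken from the F statistic. Comparisons with all 4 empty vector libraries and between constructs used 1 fit of 13 groups, and own-pair and response comparisons 1 fit with the empty vector split by strand share. In the fit of 13 groups the empty vector pairs count as 1 group, so their difference enters the spread used between constructs. That split was made from the counts and not from the labels. On simulated data for ARID1A WT against the empty vector (13734 genes), 85.4% of 48 genes changed 2-fold and 96% of 50 genes changed 4-fold were called, and 0.103% of unchanged genes. The simulation gave all genes 1 dispersion and the empty vector pairs equal levels. These rates thus do not describe the data, where the pairs differ and their difference enters the spread.

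The members and lists were chosen with earlier results of these data known. All 10 members are named. From each other list up to 4 genes are named, those called and changed by 1 or more on the log2 scale against the own pair with ARID1A WT or ARID1B WT, smallest p first, and ATF4, ARID1A, ARID1B, DDX4 and a detected near copy always. Likeness took, for 4 members, the 5 tested genes with the highest Pearson r of mean log2 CPM (0.5 added) over 13 groups, without LOC, LINC, MIR, SNOR, antisense or dotted symbols. Alternatives were DESeq2 1.42.0, RLE scaling, other filters, counts without strand, a fit of just the compared groups, either empty vector pair alone, the replicate block and each library left out.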

Additional observations from a re-analysis of the deposited data

Results flagged for a closer look

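The responses to ARID1A WT and ARID1B WT, each against its own empty vector pair, differed by the test of the difference (edgeR, adjusted over all genes) in 7 members. On the log2 scale the ARID1A WT response was lower for SLC6A9 (-1.18), ALDH1L2 (-1.02), PSAT1 (-0.63) and PHGDH (-0.26), where 18.7% of all genes were lower. It was higher for MTHFD1 (0.92), SHMT1 (0.55) and SHMT2 (0.53), where 22.9% of all genes were higher. The 3 of 10 that were higher are near the share of all genes. The response to the DDX4 hybrid was lower than that to ARID1A WT in all 10 members (25.2% of all genes were lower): SLC6A9 (-1.38), SHMT1 (-1.29), SHMT2 (-1.24), MTHFD2 (-1.07), ALDH1L2 (-1.04), PSPH (-0.91), PHGDH (-0.83), MTHFD1L (-0.75), PSAT1 (-0.53) and MTHFD1 (-0.42). Each response has its own controls, so the difference between the empty vector pairs (0.88 ± 0.05 for SHMT2, 0.88 ± 0.04 for MTHFD1, -0.68 ± 0.07 for SLC6A9) enters these values. With both constructs against replicates 1 and 2, MTHFD1 was at 0.31 ± 0.04 with ARID1A WT, 0.28 ± 0.04 with ARID1B WT and 0.77 ± 0.04 with the DDX4 hybrid, and SHMT2 at -0.18 ± 0.05 with ARID1A WT and 0.17 ± 0.05 with ARID1B WT. SHMT1 was at 1.03 ± 0.06 and 1.19 ± 0.06 with the same 2 constructs. The differences for SHMT1 and SHMT2 between the WT constructs, and for MTHFD1 between the DDX4 hybrid and ARID1A WT, thus turned direction against 1 pair. Any difference between sets enters the values against 1 pair, and these turns were not tested.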

How the results depend on the processing

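DESeq2 and RLE scaling lost none of the members' calls, and leaving out 1 library lost 15 of 576 against 4 empty vector libraries, 37 of 192 between constructs and 4 of 276 against the own pair. The control pair turned directions. With the replicate block, which drops empty vector replicates 3 and 4 so that 26 libraries remain, MTHFD1 was at 0.31 with ARID1A WT, 0.46 with DBDmut and 0.28 with ARID1B WT, and SHMT2 at 0.22 with delIDR1, 0.16 with DBDmut, 0.35 with 42YS and 0.17 with ARID1B WT. With empty vector replicates 1 and 2 as the only control, MTHFD1 was again at 0.31, 0.46 and 0.28, and SHMT2 at 0.215, 0.16, 0.35 and 0.17. With replicates 3 and 4 only, SHMT1 was at -0.14 with CBR and -0.27 with the DDX4 hybrid, SLC6A9 at 0.24 with CBR, SHMT2 at -0.34 in the libraries labelled AQGscram, and MTHFD1 at -0.11 with the DDX4 hybrid, -0.27 with AQGscram, -0.17 with 42YS, -0.35 with M2 and -0.18 with A457_G461del. None of these was called against all 4 libraries.

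Counts of members called moved too. Fitting only the groups compared gave 4 for delIDR1, 4 for DBDmut, 0 for AQGscram and 5 for ARID1B WT against the empty vector, 7 for DBDmut against ARID1A WT, 4 for 42YS against AQGscram, 6 for A457_G461del against Block13del and 8 against Block9del. Calls over all genes in these fits are given below for some comparisons only. Where they are not, the counts do not set the members apart from genes in general. For AQGscram each pair alone and the block gave 8. The block and, chosen after seeing the data, the empty vector pairs as separate groups gave 8 for DBDmut against ARID1A WT, and 6 and 8 for A457_G461del against Block13del and Block9del. Without 1 library these 3 counts ran from 2 to 3, stayed at 1 and ran from 2 to 3. Over all genes, DBDmut against ARID1A WT called 799, or 2664 with the block, 2739 in the groups alone and 2711 with separate pairs, and its share of rises went from 17.8% to 43.1%, 41.8% and 43.7%. M2 against ARID1B WT called 2035, or 4838, 6570 and 4893, and A457_G461del against Block9del 1790, or 4420, 5392 and 4490. AQGscram against the empty vector called 3507, or 8534 with the block, 8555 against replicates 1 and 2 and 0 in the groups alone. Whether replicate numbers pair the libraries was not settled. Over 78 pairs of groups the deviations correlated from -0.55 to 0.54, and 21 exceeded 0.1. These pairs include groups of different sets, so the values do not show whether libraries within a set were paired. For set 1 against the own pair the block lost 0 of 39 calls. For the own-pair comparisons of set 2, the vector pairs and the response differences alone, no paired analysis was possible because empty vector replicates 3 and 4 share no replicate number with the libraries they are set against. The cause of these shifts was not tested.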
